A study of Mus musculus with 24 samples.

Results

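The genes described here encode 41 proteins of the sarcomere, the Z-disc and the costamere of striated muscle. They were chosen by name, from a list of structural muscle genes that leaves out the fibre-type isoforms of myosin and troponin, and all 41 were found among 54752 gene IDs. The choice was made with earlier results of these data known. Shares of the 41 that passed a test are therefore not those of an independent list. Total RNA of the gastrocnemius, the large calf muscle of the mouse, was sequenced in 24 libraries that form 8 groups of 3. In every animal Numb and Numbl were floxed, Numb(f/f) and NumbL(f/f), both genes for adaptors in endocytosis and Notch signalling. HSA-MCM animals also carried a Cre recombinase fused to an oestrogen receptor domain under the human skeletal actin promoter, a promoter active in muscle fibres. Flox animals lacked that transgene. The groups were HSA-MCM females after tamoxifen and after vehicle, flox females after tamoxifen and after vehicle, and the same for HSA-MCM males and flox males. Tamoxifen thus meets the recombinase in HSA-MCM animals, the intended knockout, and acts without it in flox animals. For the 3 HSA-MCM male libraries titled vehicle control the treatment field reads tamoxifen. They were grouped by title, and several results that rest on them in part are also given without them. The changes in HSA-MCM males, the genotype comparison after vehicle and the interaction in males cannot be fitted without them. Flox males are titled WT. Not given in the sources used here were age, strain, and when and how much tamoxifen was given.

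The sarcomere is the contractile unit of the muscle fibre. Thin filaments of actin are anchored in the Z-disc, thick filaments of myosin are held together in the M-band, and titin spans the distance from Z-disc to M-band. Costameres tie the outer Z-discs to the cell membrane and, through dystrophin, dystroglycan, sarcoglycans, vinculin and talin, to the matrix outside. Several of these proteins differ between slow fibres, which contain the myosin Myh7, and fast fibres, which fill most of the mouse gastrocnemius with the myosin Myh4.

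Libraries held 21516819 to 43014516 counts, of which the 41 genes took 7.90% to 10.8%. The deposited values are read counts per gene, given here as CPM, the count divided by the TMM-scaled library size and multiplied by 1000000. All 41 genes passed the filter on low counts in every comparison. The muscle markers Ckm and Tnnt3 lay at 11000 to 32200 CPM and at 17100 to 30700 CPM in all libraries, while the heart genes Nppa, Mybpc3 and Tnni3 did not exceed 0.486 CPM and Myh6, the fourth of that list, ran over 1.76 to 455 CPM. Numb lay between 15.3 and 25.3 CPM and Numbl between 2.67 and 6.49 CPM. Averaged over the 4 combinations of sex and genotype, Numb was lower after tamoxifen than after vehicle by a log2 change of -0.19 ± 0.04 (SE; adjusted p = 0.00761, edgeR quasi-likelihood test) and Numbl was higher by 0.42 ± 0.08 (adjusted p = 0.00261). Neither passed the threshold, an adjusted p of 0.05, in any of the 4 combinations alone. Numb was lower in every tamoxifen than in every vehicle library of HSA-MCM females (at most 19.1 against at least 20.7 CPM). The same held without the recombinase, in flox females (19.8 against 21.1 CPM) and flox males (16.5 against 16.9 CPM). In HSA-MCM males the groups overlapped, with 19.9 CPM in tamoxifen library 1 and 18.1 CPM in vehicle library 1. The part of recombination in the change of Numb was not tested. Counts over the whole gene do not separate floxed exons from the rest. The 3 tables split the samples into HSA-MCM females, flox females and males, so in females the table follows the genotype, and between the sexes it follows the sex, and these cannot be told apart.

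Per kilobase of annotated exon, the skeletal actin gene Acta1 had the highest level of the 41, with a median of 21380 CPM per kb over the 24 libraries. It was followed by Tcap (telethonin, a cap on titin at the Z-disc) with 2466, by Mybpc2 (the fast myosin-binding protein C) with 2178, by the Z-disc gene Myoz1 with 1076 and by Des (desmin, the intermediate filament between Z-discs) with 886 CPM per kb. At the other end lay Ankrd1 with 4.15, Sgcd (delta-sarcoglycan) with 1.65 and Utrn (utrophin, the autosomal relative of dystrophin) with 1.55 CPM per kb. The costamere genes Dmd (dystrophin) with 6.24 and Vcl (vinculin) with 9.70 CPM per kb were also low beside the filament genes. Vcl had 97.15 to 160.5 CPM in females and 40.35 to 61.81 CPM in males, so its median lies between the ranges of different tables. Of its exonic bases 25.5% overlap an opposite-strand gene, and its levels are not compared between tables. The ratio of the highest to the lowest library in CPM had a median of 2.32 over the 41 genes. For 14 genes it was under 2, among them Klhl41, a stabiliser of nebulin, with 1.38, Des with 1.43 and Sgcb (beta-sarcoglycan) with 1.50. For 13 genes it was above 5, led by Mybph with 42.1, Myom3 with 39.6 and Csrp3 with 32.2. For Mybph the lowest library was male and the highest female, and levels of this gene cannot be compared between tables, as described below. Its range was 250 to 655 CPM in females and 15.5 to 212 CPM in males.

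The comparison of tamoxifen with vehicle asks how the drug, with or without recombination, changed these genes. Averaged over the 4 combinations of sex and genotype, 8 of the 41 genes changed. The genes Smtnl2, Xirp1, Xirp2, Sgcb and Tmod4 fell, and Tcap, Myom2 and Nrap rose. These 8 are 19.5% of the 41, while 8.83% of all 16670 genes tested passed the same threshold, 3.95% higher and 4.88% lower. The median log2 change was -0.01 for the 41 genes and 0.00 for all genes. Without the 6 HSA-MCM male libraries 6 of the 41 passed, as did 8.62% of all genes, and Myom2 (adjusted p = 0.0626) and Xirp1 (adjusted p = 0.0689) did not. Markers of other cells moved in the same comparison, with Kdr lower among 4 endothelial genes, Cd68 lower among 4 leukocyte genes and Scx higher among 4 tendon genes. Of 8 genes of developing fibres Actc1, Chrng and Myh3 rose and Myod1 fell. The leukocyte genes summed to at most 20.5 CPM in any library after tamoxifen and to at most 27.0 CPM after vehicle, and the part of these markers in the changes of the 41 genes was not tested. RNA was taken from whole muscle, where fewer fibres of a type and less RNA per fibre cannot be told apart.

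Within each combination fewer genes passed. In HSA-MCM females 3 genes (Mybph, Smtnl2 and Xirp2) were lower after tamoxifen, where 0.704% of all genes fell and 1.32% passed in either direction. In flox females 0 of 41 passed with edgeR, where 0.131% of all genes did. There 4 of the 41 were under an unadjusted p of 0.05, as were 8.65% of all genes, and DESeq2 called 2, Tcap and Xirp2, where it called 0.949% of all genes. In HSA-MCM males Myom2 was higher and Smtnl2 lower, where 0.512% of all genes rose and 0.378% fell. In flox males Myom2 was higher and Smtnl2 and Sgcb were lower, where 1.35% of all genes rose and 1.54% fell. Groups did not overlap for 4 genes higher and 10 lower in HSA-MCM females, 3 and 3 in flox females, 3 and 3 in HSA-MCM males, and 10 and 5 in flox males. Over all genes the shares without overlap were 22.6%, 14.5%, 13.8% and 27.8% in the same order.

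**Figure D1:**
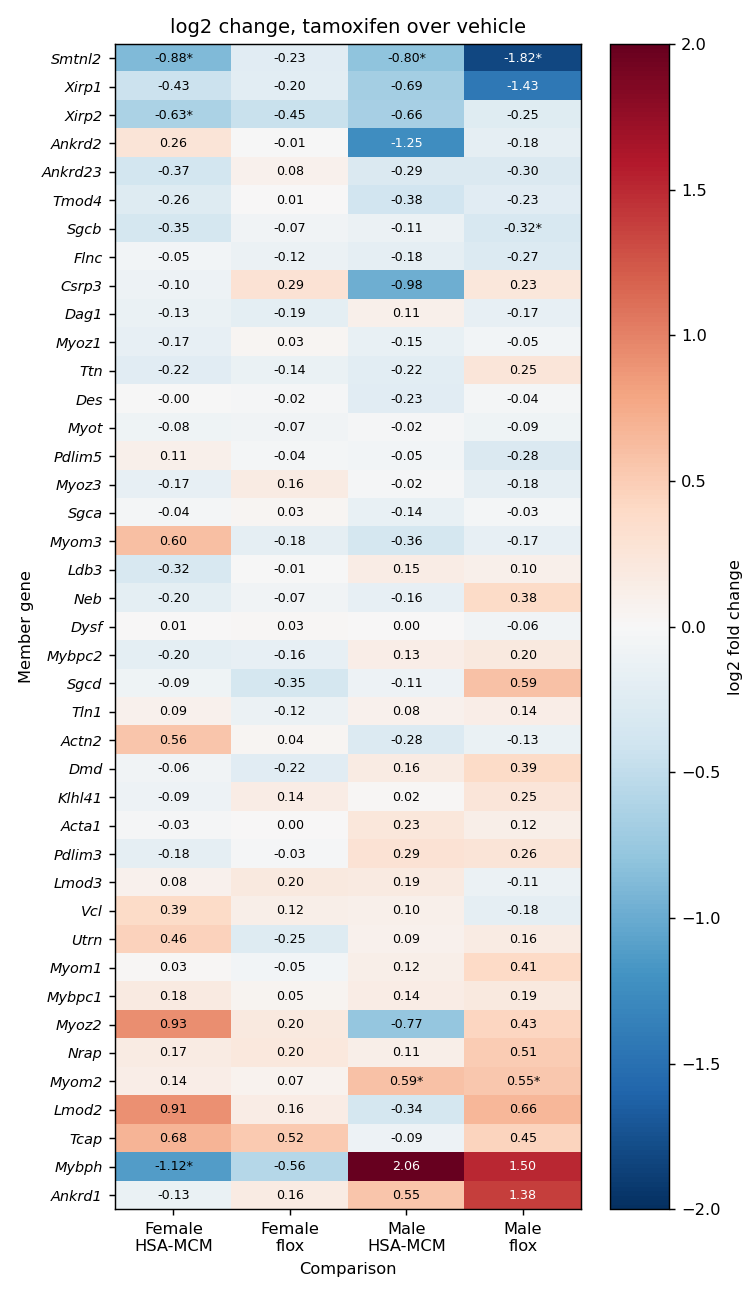
Log2 change of each of the 41 genes, tamoxifen over vehicle, in the 4 combinations of sex and genotype (columns), with genes (rows) sorted by the mean of the 4 changes from lowest to highest. The colour scale ends at -2 and 2, and an asterisk marks an adjusted p under 0.05 (edgeR). Smtnl2 stands at the top with negative values in all 4 columns, and Mybph is negative in both female columns and positive in both male columns.

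Smtnl2 (smoothelin-like 2, related by sequence to the smoothelins, cytoskeletal proteins of smooth muscle) is encoded on chromosome 11 at 72389164 to 72411713, minus strand, GRCm38. In HSA-MCM females Smtnl2 had 133, 173 and 155 CPM after tamoxifen, against 278, 312 and 262 CPM after vehicle. In flox males it had 128, 128 and 102 CPM after tamoxifen, against 405, 416 and 443 CPM after vehicle. In HSA-MCM males it had 230, 280 and 350 CPM after tamoxifen, against 451, 440 and 604 CPM after vehicle. In these 3 combinations every tamoxifen library lay below every vehicle library. In flox females it had 287, 270 and 274 CPM after tamoxifen, against 281, 293 and 400 CPM after vehicle, and these groups overlapped. Averaged over the 4 combinations the log2 change of Smtnl2 was -0.93 ± 0.08 (SE; adjusted p = 1.64e-07, edgeR).

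By combination, the log2 change of Smtnl2 was -1.82 ± 0.17 in flox males (adjusted p = 0.000156, edgeR), -0.88 ± 0.12 in HSA-MCM females (adjusted p = 0.0148), -0.80 ± 0.17 in HSA-MCM males (adjusted p = 0.0433) and -0.23 ± 0.13 in flox females (adjusted p = 0.67). The call in flox males held without any single library, with an adjusted p of at most 0.00215. The call in HSA-MCM females was lost without vehicle library 1 (adjusted p = 0.0685) or vehicle library 2 (adjusted p = 0.0516). In HSA-MCM males it was lost without any of 11 of the 12 male libraries, all but HSA-MCM tamoxifen library 3, with adjusted p-values of 0.0519 to 0.122. Smtnl2 thus fell after tamoxifen in animals of both genotypes, also where no recombinase was present. The smooth muscle markers Myh11, Acta2, Tagln, Cnn1 and Smtn, 0 of which passed in any tamoxifen comparison with edgeR, also at an unadjusted p of 0.05, summed to 121 to 187 CPM in flox males after tamoxifen and to 133 to 204 CPM after vehicle. Of these, Tagln had 0.227 to 0.607 CPM in males and 19.1 to 31.8 CPM in females, and added almost nothing to the sums in males. Opposite-strand genes overlap 67.9% of its exonic bases.

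Without the 3 HSA-MCM male libraries titled vehicle, the change of Smtnl2 was again -1.82 in flox males (adjusted p = 0.000414) and -0.98 over the other 3 combinations (adjusted p = 4.51e-07), while the change in HSA-MCM males rests on them.

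Whether the response differed between genotypes was tested as an interaction in each sex. The response of Smtnl2 in HSA-MCM males minus that in flox males was a log2 difference of 1.02 ± 0.23 (adjusted p = 0.276, edgeR). The response in HSA-MCM females minus that in flox females was -0.65 ± 0.18 (adjusted p = 0.423). Neither passed with edgeR, and DESeq2 called the difference in males (adjusted p = 0.0217), where it called 0.525% of all genes. In each sex 0 of the 41 genes passed the interaction test with edgeR, where 2 genes of all, or 0.0128%, passed in males and 0 genes, or 0%, in females. Under an unadjusted p of 0.05 lay 2 of the 41 in males, where 8.25% of all genes did, and 6 in females, where 7.54% did. DESeq2 called 1 of the 41 and 0.307% of all genes in females. The gene was Utrn, whose response differed by 0.71 ± 0.14 (adjusted p = 0.292 with edgeR, 0.00691 with DESeq2). Utrn averaged 42.8 ± 4.13 CPM in HSA-MCM females after tamoxifen and 31.2 ± 2.34 CPM after vehicle, and 20.3 ± 1.74 CPM in flox females after tamoxifen and 24.2 ± 1.78 CPM after vehicle (SD, n = 3 each).

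Xirp1 and Xirp2 encode the Xin actin-binding repeat proteins, which bind actin at the Z-disc and at the junctions of fibres with tendon. In HSA-MCM females Xirp2 had 2064, 1903 and 1975 CPM after tamoxifen, against 3010, 2862 and 3390 CPM after vehicle. In flox females it had 1792, 1786 and 1595 CPM after tamoxifen, against 2381, 2489 and 2185 CPM after vehicle. The female groups did not overlap in either genotype. In HSA-MCM males it had 755, 2390 and 2329 CPM after tamoxifen, against 3134, 3414 and 2175 CPM after vehicle, and in flox males 1992, 1627 and 2382 CPM after tamoxifen, against 2414, 2178 and 2533 CPM after vehicle. The male groups overlapped in both genotypes, and HSA-MCM tamoxifen library 1 was the lowest of all 24.

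The log2 change of Xirp2 was -0.63 ± 0.10 in HSA-MCM females (adjusted p = 0.03, edgeR), -0.45 ± 0.10 in flox females (adjusted p = 0.201), and -0.50 ± 0.14 over the 4 combinations (adjusted p = 0.0275). In HSA-MCM females the call was lost without any of 5 libraries, which are tamoxifen libraries 1 and 3 and vehicle libraries 1, 2 and 3, with adjusted p-values of 0.0503 to 0.123. Over the 4 combinations it was lost without any of 6 libraries (adjusted p 0.0509 to 0.0559), which are HSA-MCM female tamoxifen 1, flox female tamoxifen 3, flox female vehicle 1 and 2, HSA-MCM male vehicle 2 and flox male tamoxifen 2. Xirp1 in flox males had 78.3, 66.0 and 87.2 CPM after tamoxifen, against 149, 159 and 314 CPM after vehicle, without overlap. In the other 3 combinations its groups overlapped, with means of 189 ± 82.5 CPM in HSA-MCM females after tamoxifen and 256 ± 81.9 CPM after vehicle (SD, n = 3 each). Over the 4 combinations its log2 change was -0.69 ± 0.20 (adjusted p = 0.0379). This call was lost without any of 16 of the 24 libraries (adjusted p 0.0515 to 0.0719) and held without HSA-MCM female tamoxifen 2 or 3 or vehicle 2, flox female vehicle 2, HSA-MCM male tamoxifen 1 or vehicle 3, or flox male vehicle 1 or 2.

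The 250 bases before the RefSeq start of Smtnl2 and Xirp2 are shown because Smtnl2 fell in 3 combinations, more than any other of the 41, and Xirp2 fell in HSA-MCM females and over the 4 combinations. They were read from RefSeq on GRCm38.p6, 5′ to 3′ on the strand of the gene. Smtnl2 lies at chr11:72411714-72411963, minus strand, and Xirp2 at chr2:67445752-67446001, plus strand. Capitals mark a match to the MEF2 motif, the site of a family of transcription factors known for muscle genes. It lies 74 to 65 bases before the start of Xirp2, and the window of Smtnl2 holds none.
Smtnl2: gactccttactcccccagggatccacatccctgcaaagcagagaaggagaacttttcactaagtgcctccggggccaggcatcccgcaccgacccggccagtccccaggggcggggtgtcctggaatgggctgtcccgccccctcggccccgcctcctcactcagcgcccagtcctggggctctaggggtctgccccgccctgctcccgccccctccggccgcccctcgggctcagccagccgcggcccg
Xirp2: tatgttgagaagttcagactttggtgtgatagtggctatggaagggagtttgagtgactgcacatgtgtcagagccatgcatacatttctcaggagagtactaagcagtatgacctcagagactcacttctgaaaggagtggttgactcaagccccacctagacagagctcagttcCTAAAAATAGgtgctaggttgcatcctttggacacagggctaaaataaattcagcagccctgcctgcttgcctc
Windows were found for 33 of the 41 genes, 41 windows in all, since some genes have several starts. Of these windows 6, or 14.6%, of 6 genes (Dmd, Klhl41, Myom3, Myoz2, Ttn and Xirp2) held a MEF2 match, against 2.92% of all 32851 windows of the same length. The E-box letters CAGCTG were found in 8 of the 41, or 19.5%, and in 13.0% of all windows. Both strands were searched. A match describes the letters of a window and not the binding of a factor.

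Among genes of the thick filament and M-band, Myom2 (myomesin 2, which cross-links myosin in fast fibres) rose in males. In HSA-MCM males Myom2 had 2208, 2675 and 2787 CPM after tamoxifen, against 1775, 1698 and 1628 CPM after vehicle. In flox males it had 3387, 3064 and 3346 CPM after tamoxifen, against 2172, 2039 and 2494 CPM after vehicle. Every tamoxifen library lay above every vehicle library in both. The log2 changes were 0.59 ± 0.12 in HSA-MCM males (adjusted p = 0.042, edgeR) and 0.55 ± 0.12 in flox males (adjusted p = 0.0322). In females they were 0.14 ± 0.14 with the transgene (adjusted p = 0.689) and 0.07 ± 0.14 without it (adjusted p = 0.926). The difference of -0.47 ± 0.14 between the mean female and the mean male response did not pass (adjusted p = 0.137). In HSA-MCM males the Myom2 call was lost without any of 10 of the 12 male libraries, the exceptions being HSA-MCM tamoxifen library 1 and flox vehicle library 3 (adjusted p 0.0609 to 0.178). In flox males it was lost without any flox library except vehicle 3, and without HSA-MCM vehicle library 1 (adjusted p 0.0525 to 0.138). Over the 4 combinations the change was 0.33 ± 0.07 (adjusted p = 0.00386), a call that held without any single library.

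Among Z-disc genes Tcap rose over the 4 combinations. In HSA-MCM females Tcap had 3170, 2227 and 2644 CPM after tamoxifen, against 1538, 1570 and 1949 CPM after vehicle. In flox females it had 2883, 3145 and 3270 CPM after tamoxifen, against 2177, 2298 and 2015 CPM after vehicle. In flox males it had 2588, 2953 and 2835 CPM after tamoxifen, against 1623, 1942 and 2552 CPM after vehicle. The groups did not overlap in these 3 combinations. In HSA-MCM males they did, with 2552, 2168 and 1840 CPM after tamoxifen, against 2378, 2487 and 2134 CPM after vehicle. The change over the 4 combinations was 0.38 ± 0.07 (adjusted p = 0.00195, edgeR), and 0.55 without the 6 HSA-MCM male libraries (adjusted p = 0.000484). Nrap, a nebulin-related scaffold of the ends of myofibrils, had 2589, 2416 and 2484 CPM in flox males after tamoxifen, against 1511, 1815 and 1916 CPM after vehicle, without overlap. Its groups overlapped in HSA-MCM females and in HSA-MCM males and did not in flox females, where it had 3070, 2549 and 2714 CPM after tamoxifen, against 2518, 2236 and 2490 CPM after vehicle. Its change over the 4 combinations was 0.25 ± 0.07 (adjusted p = 0.0347), and this call was lost without any of 11 of the 24 libraries (adjusted p 0.05 to 0.0727). These were HSA-MCM female tamoxifen 1 and 3 and vehicle 2, flox female tamoxifen 1 and vehicle 2, HSA-MCM male tamoxifen 1 and 2 and vehicle 3, and flox male tamoxifen 1 and 3 and vehicle 1.

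At the thin filament, Tmod4 (tropomodulin 4, which caps the pointed end of actin) fell by 0.22 ± 0.06 over the 4 combinations (adjusted p = 0.0176, edgeR). In HSA-MCM females it had 370, 385 and 393 CPM after tamoxifen, against 462, 461 and 460 CPM after vehicle, and in flox males 300, 292 and 304 CPM after tamoxifen, against 351, 371 and 330 CPM after vehicle. Those groups did not overlap. In HSA-MCM males they did not overlap either, with 271, 352 and 348 CPM after tamoxifen, against 406, 355 and 505 CPM after vehicle. In flox females they overlapped, with 540, 457 and 490 CPM after tamoxifen, against 493, 470 and 516 CPM after vehicle. The actin gene Acta1 itself lay between 23990 and 42450 CPM and had a log2 difference of 0.08 over the 4 combinations, which did not pass.

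At the costamere, Sgcb (a subunit of the sarcoglycan complex that stabilises the dystrophin complex in the membrane) fell. In flox males Sgcb had 89.9, 96.1 and 101 CPM after tamoxifen, against 119, 119 and 119 CPM after vehicle. In HSA-MCM females it had 91.9, 102 and 111 CPM after tamoxifen, against 132, 135 and 125 CPM after vehicle. In HSA-MCM males it had 118, 123 and 115 CPM after tamoxifen, against 134, 127 and 124 CPM after vehicle. The groups did not overlap in these 3 combinations, and the differences were small beside those of Smtnl2. In flox females the groups overlapped, with 108, 109 and 107 CPM after tamoxifen, against 125, 111 and 106 CPM after vehicle. The log2 change was -0.22 ± 0.04 over the 4 combinations (adjusted p = 0.000599, edgeR) and -0.32 ± 0.07 in flox males (adjusted p = 0.0344). The call in flox males was lost without any flox male library and without HSA-MCM vehicle library 1 (adjusted p 0.0542 to 0.132), and likewise without the 3 HSA-MCM vehicle male libraries (adjusted p = 0.0523). The call over the 4 combinations held without any single library.

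**Figure D2:**
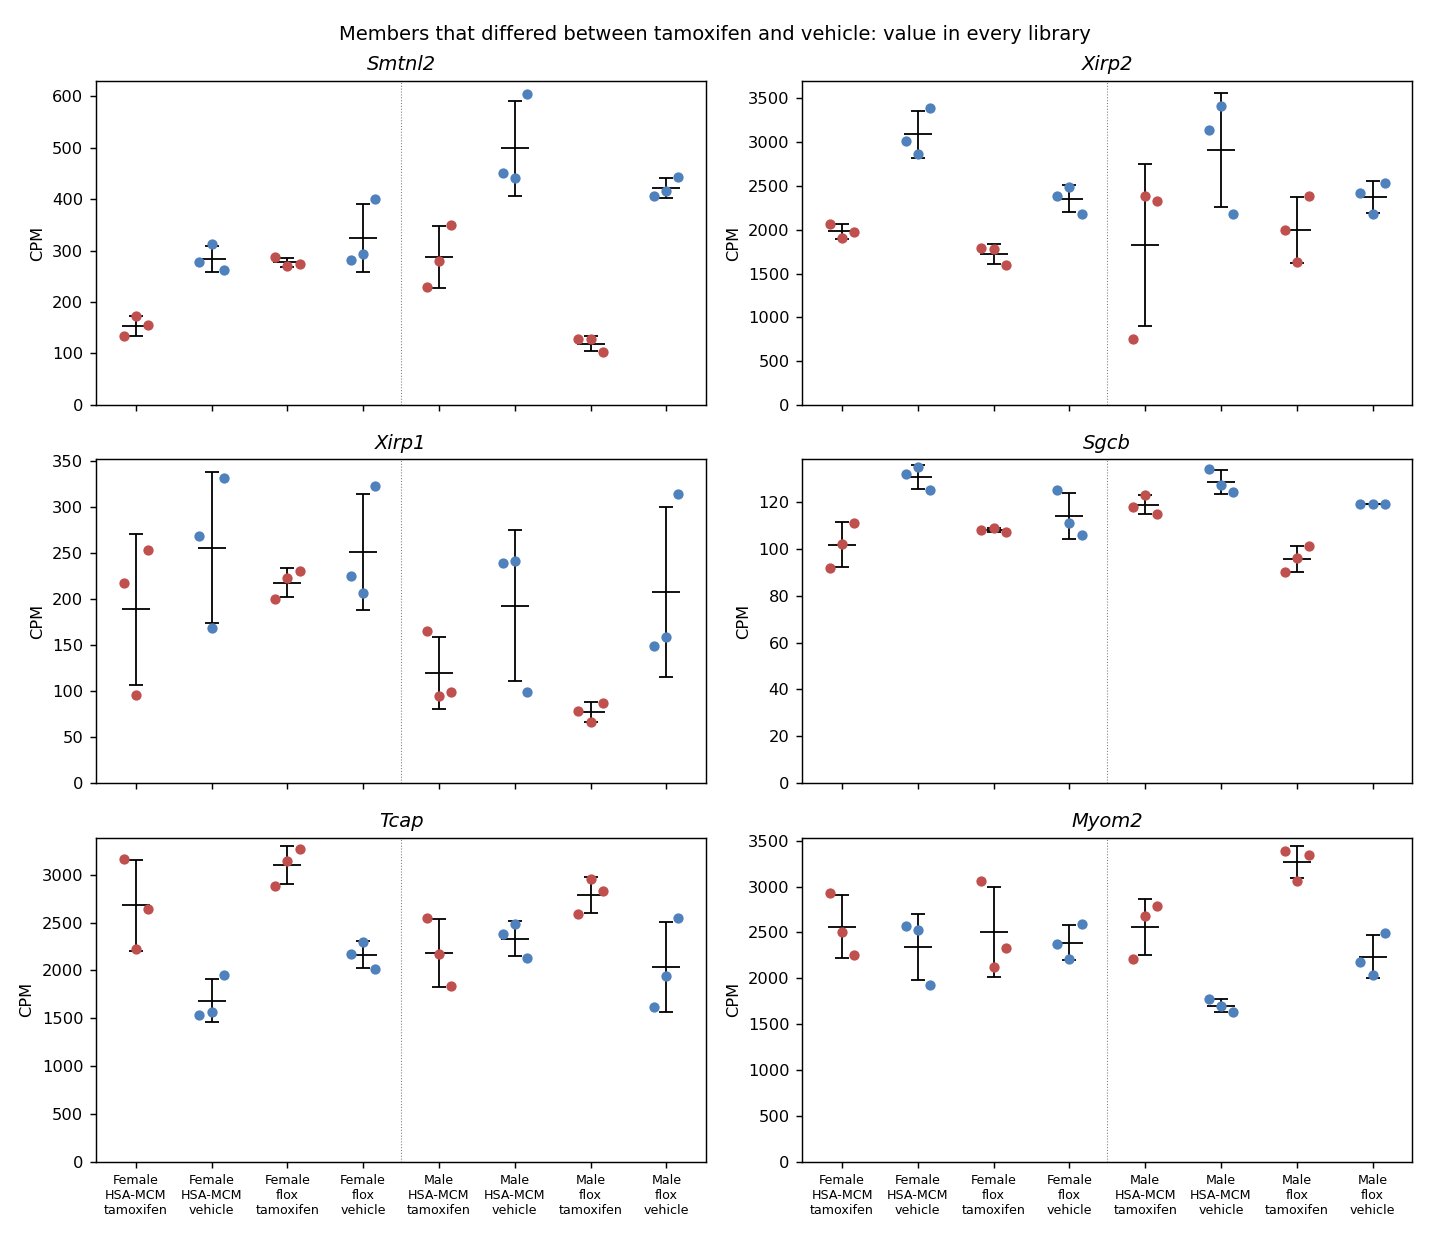
CPM (linear axis from 0) of 6 genes in every library, with 3 libraries per group (points, red for tamoxifen and blue for vehicle) and the mean ± SD (black), and groups by sex, genotype and treatment along the horizontal axis. Smtnl2 is lower after tamoxifen without overlap in 3 of the 4 combinations, and Xirp2 has its lowest value, 755 CPM, in an HSA-MCM male after tamoxifen.

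Mybph (myosin-binding protein H, a thick-filament protein, chromosome 1 at 134193448 to 134201232, plus strand) was lower after tamoxifen in females and higher in males. In HSA-MCM females Mybph had 250, 270 and 288 CPM after tamoxifen, against 603, 599 and 566 CPM after vehicle. In flox females it had 285, 356 and 447 CPM after tamoxifen, against 655, 478 and 478 CPM after vehicle. Every female tamoxifen library lay below every female vehicle library of its genotype. In HSA-MCM males it had 188, 49.4 and 212 CPM after tamoxifen, against 39.6, 41.1 and 26.7 CPM after vehicle. In flox males it had 66.6, 113 and 123 CPM after tamoxifen, against 45.7, 45.2 and 15.5 CPM after vehicle. Every male tamoxifen library lay above every male vehicle library of its genotype.

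The log2 change of Mybph was -1.12 ± 0.09 in HSA-MCM females (adjusted p = 0.00295, edgeR). It was -0.56 ± 0.19 in flox females (adjusted p = 0.477), 2.06 ± 0.58 in HSA-MCM males (adjusted p = 0.206) and 1.50 ± 0.57 in flox males (adjusted p = 0.219), none of which passed alone with edgeR, while DESeq2 called the change in HSA-MCM males (adjusted p = 0.0189). The mean response of females minus that of males was -2.63 ± 0.43 (adjusted p = 0.00589). This test of the difference was added after the responses had been seen, and 2 of the 41 genes passed it, where 0.708% of all genes did. The call held without any single library, and without the 6 HSA-MCM male libraries the difference was -2.36 (adjusted p = 0.0151). That last difference sets the mean of both female genotypes against flox males alone, so sex and genotype are mixed in it. The other gene that passed was Smtnl2, with a difference of 0.75 ± 0.16 (adjusted p = 0.0238), that is, a smaller mean fall in females than in males. Only flox animals had this order, with log2 changes of -0.23 in females and -1.82 in males. In HSA-MCM animals the changes were -0.88 in females and -0.80 in males. The call of Smtnl2 was lost without any of 6 libraries (adjusted p 0.0501 to 0.0565), which are HSA-MCM female vehicle 1 and 3, HSA-MCM female tamoxifen 2, flox female vehicle 1, flox male vehicle 3 and flox male tamoxifen 3. Without the 6 HSA-MCM male libraries its difference, again against flox males alone, was 1.25 (adjusted p = 0.000341). Of the exonic bases of Mybph, 49.9% overlap the opposite-strand gene Adora1, which had 0.24 to 4.35 CPM. Adora1 too was higher after tamoxifen in males, without overlap. It had 1.75, 0.499 and 3.23 against 0.421, 0.434 and 0.24 CPM in HSA-MCM males. In flox males it had 1.66, 4.35 and 4.0 against 0.954, 1.02 and 1.4 CPM. In females its groups overlapped in both genotypes. Whether the shared bases bear on the male responses of Mybph was not tested. Other genes with a large opposite-strand overlap were near 0 in the male table alone. The fast troponin gene Tnnc2, with 74.0% overlap, had 6312 to 14562 CPM in females and 1.86 to 3.40 CPM in males, and Ilk, with 89.7%, had 31.5 to 43.9 CPM in females and 0.54 to 1.03 CPM in males. The level of Mybph in males and in females therefore cannot be compared between tables, and the responses to tamoxifen were each taken within a table.

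**Figure D3:**
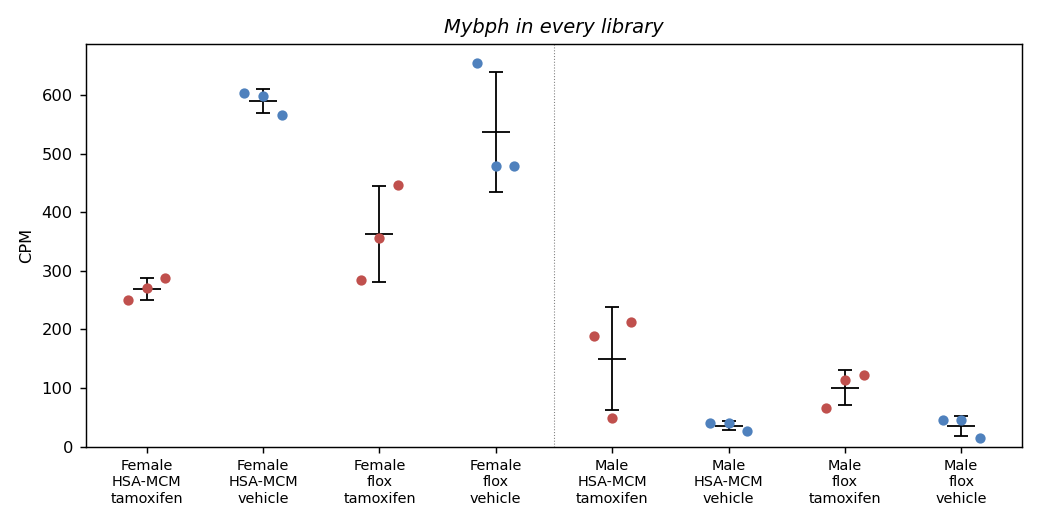
CPM of Mybph (linear axis from 0) in every library, with 3 libraries per group (points, red for tamoxifen and blue for vehicle) and the mean ± SD (black). Tamoxifen groups lie below vehicle groups in females and above them in males, where the highest library has 212 CPM, and levels of males and females come from different tables.

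HSA-MCM males were compared with flox males because both lie in 1 table. After vehicle 0 of the 41 genes differed with edgeR, where 0.947% of all genes did. Under an unadjusted p of 0.05 lay 5 of the 41 and 17.2% of all genes, and DESeq2 called 2, Myom2 and Sgcd, where it called 3.83% of all genes. After tamoxifen 4 of the 41 were higher in HSA-MCM males than in flox males and 0 were lower, where 2.76% of all genes were higher. Groups did not overlap for 6 genes higher and 1 lower after vehicle, and 6 higher and 4 lower after tamoxifen, where 22.6% and 27.7% of all genes had no overlap. The 4 genes were Smtnl2 and 3 costamere genes, Vcl, Sgcb and Dag1.

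Vcl encodes vinculin, which links talin and actin at the membrane. After tamoxifen it had 59.6, 57.4 and 61.4 CPM in HSA-MCM males, against 42.9, 40.4 and 45.5 CPM in flox males. Dag1, the dystroglycan that binds dystrophin inside and laminin outside the fibre, had 283, 275 and 277 CPM in HSA-MCM males after tamoxifen, against 218, 211 and 211 CPM in flox males after tamoxifen. Neither gene's groups overlapped. The log2 differences were 0.47 ± 0.10 for Vcl (adjusted p = 0.0205, edgeR), 0.38 ± 0.10 for Dag1 (adjusted p = 0.0429), 0.30 ± 0.07 for Sgcb (adjusted p = 0.0304) and 1.26 ± 0.17 for Smtnl2 (adjusted p = 0.00164). After vehicle they were 0.19 for Vcl (adjusted p = 0.367), 0.10 for Dag1 (adjusted p = 0.622), 0.10 for Sgcb (adjusted p = 0.53) and 0.24 for Smtnl2 (adjusted p = 0.495). The genotype differences after tamoxifen and after vehicle did not differ past the threshold with edgeR for any of the 41 genes, as the interaction in males shows, while DESeq2 called that of Smtnl2.

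Smtnl2 kept its genotype difference without any single library, with an adjusted p of at most 0.0114 in every alternative. Its log2 difference was smaller, 0.924, with Myh7 as a covariate (adjusted p = 0.00367, edgeR). Without both HSA-MCM males lowest in Myh7 it was 1.09 (adjusted p = 0.00172). For Dag1 the call was lost without any of 10 of the 12 male libraries (adjusted p 0.0505 to 0.142), the exceptions being flox vehicle library 3 and HSA-MCM vehicle library 3, and without all 3 HSA-MCM vehicle libraries it was lost too (adjusted p = 0.0547). For Sgcb it was lost without HSA-MCM tamoxifen library 2 or 3 or any flox tamoxifen library (adjusted p 0.0618 to 0.123). With Myh7 as a covariate the calls of Dag1 (adjusted p = 0.126) and Sgcb (adjusted p = 0.0613) were lost, and likewise without both HSA-MCM males lowest in Myh7 (adjusted p = 0.0815 for Dag1 and 0.052 for Sgcb). For Vcl it was lost without HSA-MCM tamoxifen library 3 or any flox tamoxifen library (adjusted p 0.052 to 0.0871), and 25.5% of its exonic bases overlap the opposite-strand gene Ap3m1. Markers of tendon and its junction with the fibre (Tnmd, Scx, Mkx and Col22a1) moved with this comparison. They summed to 38.9, 55.1 and 56.0 CPM in HSA-MCM males after tamoxifen, against 30.0, 31.1 and 31.2 CPM in flox males after tamoxifen, and 1 of the 4, Col22a1, passed. Genes of developing fibres summed to 301 to 1216 CPM in HSA-MCM males and to 118 to 174 CPM in flox males after tamoxifen, and 2 of the 6 measured in that comparison, Actc1 and Myod1, were higher in HSA-MCM males. Actc1 alone had 1168, 250 and 528 CPM in HSA-MCM males and 61.4, 80.4 and 90.7 CPM in flox males after tamoxifen, and the other 4 had negative log2 differences that did not pass (median over the 6 of -0.57). Of 10 slow-fibre genes 9 had negative log2 differences, 4 of them without overlap and 0 past the threshold with edgeR, also at an unadjusted p of 0.05. Their sum was 167, 930 and 2945 CPM in HSA-MCM males and 2707, 3349 and 3453 CPM in flox males after tamoxifen. The part of these markers in the differences of the 4 genes was not tested.

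A further comparison asked how the 41 genes followed the slow myosin Myh7 from library to library within groups, since slow fibres are few and unevenly placed in this muscle. Myh7 varied widely, with 759, 214 and 9.97 CPM in HSA-MCM males after tamoxifen, against 415, 917 and 61.0 CPM after vehicle, and with 2658, 1090 and 2438 CPM in HSA-MCM females after tamoxifen, against 1084, 335 and 1733 CPM after vehicle. Flox females had 617 to 1692 CPM after tamoxifen and 1617 to 2017 CPM after vehicle, and flox males 831 to 1101 CPM after tamoxifen and 656 to 769 CPM after vehicle. The slope on Myh7 is the log2 change of a gene for each log2 unit of Myh7, with the 8 group means held apart. The slope was positive for 10 of the 41 genes and negative for 4 past the threshold, together 34.1% of the 41, where 6.83% of all genes passed, 4.19% positive and 2.63% negative. On a list of 10 slow-fibre genes that holds Myh7 itself, the other 9 passed with positive slopes. On a list of 10 fast-fibre genes 2 passed with positive and 6 with negative slopes, in a range of -0.12 to 0.61. The fast myosin gene Myh2 had 4170, 1494 and 328 CPM in HSA-MCM males after tamoxifen, against 3502, 4777 and 678 CPM after vehicle. A positive slope on Myh7 is therefore not particular to slow-fibre genes.

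The genes with the largest positive slopes were Csrp3 (muscle LIM protein, a Z-disc protein), Myom3 (myomesin 3, an M-band protein), Ankrd2 (an ankyrin-repeat protein bound to titin), Myoz2 (calsarcin 1, which binds calcineurin at the Z-disc) and Lmod2 (leiomodin 2, which elongates thin filaments). Their slopes were 0.73 ± 0.10 for Csrp3 (adjusted p = 0.000494, edgeR), 0.70 ± 0.05 for Myom3 (adjusted p = 8.71e-08), 0.69 ± 0.08 for Ankrd2 (adjusted p = 7.27e-05), 0.58 ± 0.04 for Myoz2 (adjusted p = 1.6e-07) and 0.46 ± 0.07 for Lmod2 (adjusted p = 0.000804). Smaller positive slopes were found for Actn2 (alpha-actinin 2, the Z-disc cross-linker) with 0.41, Mybpc1 (the slow myosin-binding protein C) with 0.28, Flnc (filamin C) with 0.16, Lmod3 with 0.12 and Nrap with 0.08. Slopes were negative for Mybpc2 with -0.16 ± 0.03 (adjusted p = 0.00265), Myoz1 (calsarcin 2) with -0.11 ± 0.02 (adjusted p = 0.00333), Smtnl2 with -0.11 ± 0.02 (adjusted p = 0.00808) and Tmod4 with -0.07 ± 0.02 (adjusted p = 0.0242). Paralogs thus lay on either side of 0, with Myoz2 and Mybpc1 positive and Myoz1 and Mybpc2 negative.

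Single libraries decided several of the smaller slopes. Without HSA-MCM male tamoxifen library 1 the calls of Mybpc2 (adjusted p = 0.0621, edgeR), Myoz1 (adjusted p = 0.0774), Smtnl2 (adjusted p = 0.0772), Tmod4 (adjusted p = 0.218), Lmod3 (adjusted p = 0.0835) and Flnc (adjusted p = 0.0901) were lost. Without HSA-MCM male vehicle library 3 those of Smtnl2 (adjusted p = 0.0571), Tmod4 (adjusted p = 0.187), Lmod3 (adjusted p = 0.0928) and Flnc (adjusted p = 0.121) were lost, and without vehicle library 2 those of Flnc (adjusted p = 0.0557) and Tmod4 (adjusted p = 0.0958). The call of Nrap held only without flox female tamoxifen 1 or 2, HSA-MCM male tamoxifen 2 or 3, or flox male vehicle 1 or 3 (adjusted p 0.0543 to 0.261 without any of the other 18 libraries). The calls of Csrp3, Myom3, Ankrd2, Myoz2, Lmod2, Actn2 and Mybpc1 held without any single library.

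**Figure D4:**
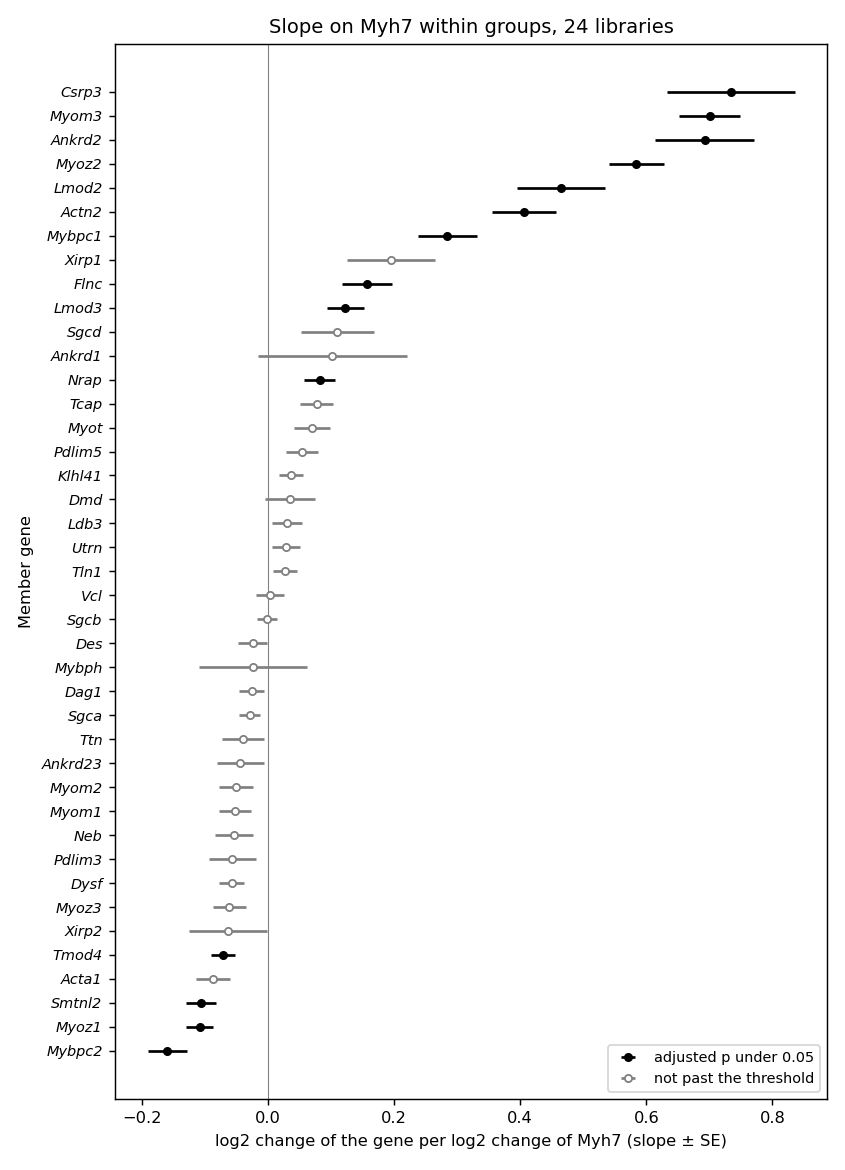
Slope of each of the 41 genes on Myh7 (horizontal axis, log2 change per log2 change of Myh7, ± SE) from a fit with 8 group means over 24 libraries, with filled points for an adjusted p under 0.05. Csrp3, Myom3, Ankrd2, Myoz2 and Lmod2 have the 5 largest slopes, 0.46 to 0.73, and Mybpc2 has the lowest slope, -0.16.

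The values in single libraries show the range. Myoz2 had 126, 57.3 and 15.0 CPM in HSA-MCM males after tamoxifen, against 121, 191 and 26.5 CPM after vehicle, and 406, 192 and 292 CPM in HSA-MCM females after tamoxifen, against 161, 78.9 and 228 CPM after vehicle. Myom3 had 155, 39.4 and 7.66 CPM in HSA-MCM males after tamoxifen, against 94.2, 142 and 20.9 CPM after vehicle. Csrp3 had 123, 42.1 and 8.98 CPM in HSA-MCM males after tamoxifen, against 93.8, 223 and 25.0 CPM after vehicle. In each of these genes library 3 of both HSA-MCM male groups was the lowest of its group, as it was for Myh7, and the treatment groups overlapped. Ankrd2 ranged over the 24 libraries between 12.2 and 305 CPM and Lmod2 between 34.8 and 315 CPM. Mybpc2 ran the other way in those males, with 4571, 8361 and 9162 CPM after tamoxifen, against 6308, 5722 and 8147 CPM after vehicle, and so did Myoz1 with 1381, 2035 and 2171 CPM after tamoxifen, against 1947, 1795 and 2447 CPM after vehicle.

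The 250 bases before the RefSeq start of Myoz2 and Myom3 are shown for the genes whose slopes had the smallest p-values and whose windows hold a MEF2 match, again on GRCm38.p6 and 5′ to 3′. Myoz2 lies at chr3:123034988-123035237, minus strand, with the match (in capitals) 33 to 24 bases before the start. Myom3 lies at chr4:135759465-135759714, plus strand, with the match 35 to 26 bases before the start.
Myoz2: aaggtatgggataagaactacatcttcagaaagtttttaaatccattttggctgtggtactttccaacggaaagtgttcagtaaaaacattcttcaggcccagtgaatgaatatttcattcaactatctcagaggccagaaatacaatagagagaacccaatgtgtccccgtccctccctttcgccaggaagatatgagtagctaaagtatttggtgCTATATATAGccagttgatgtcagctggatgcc
Myom3: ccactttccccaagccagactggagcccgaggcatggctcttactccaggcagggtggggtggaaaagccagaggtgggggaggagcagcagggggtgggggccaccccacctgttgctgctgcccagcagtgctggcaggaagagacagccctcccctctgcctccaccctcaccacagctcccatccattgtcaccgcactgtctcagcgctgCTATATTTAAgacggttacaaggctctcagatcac
Of the genes with a positive slope past the threshold and a window, these are the ones with a match. A TATAAA match was found in 6 of the 41 windows, or 14.6%, and in 12.4% of all.

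**Figure D5:**
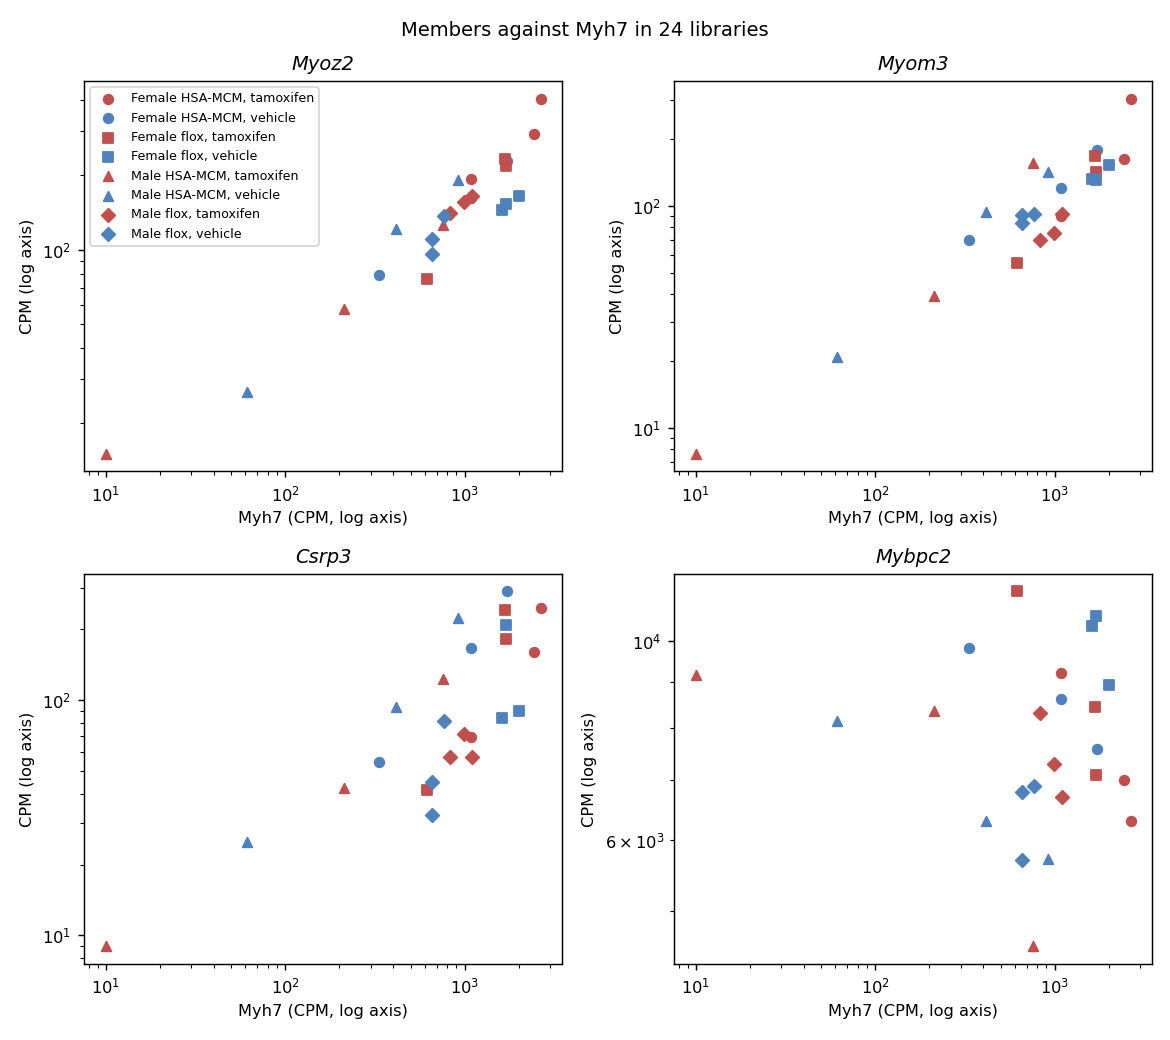
CPM of Myoz2, Myom3, Csrp3 and Mybpc2 (vertical, log axis) against CPM of Myh7 (horizontal, log axis), with each point a library, the symbol showing sex and genotype and the colour the treatment (red tamoxifen, blue vehicle). Both HSA-MCM male libraries with the lowest Myh7, 9.97 CPM after tamoxifen and 61.0 CPM after vehicle, are also lowest in Myoz2, at 15.0 and 26.5 CPM.

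None of the 5 genes with the largest slopes passed in any comparison of groups. The log2 change of Myoz2 after tamoxifen was 0.93 ± 0.48 in HSA-MCM females (adjusted p = 0.409, edgeR) and -0.77 ± 0.77 in HSA-MCM males (adjusted p = 0.831). The change of Lmod2 was 0.91 ± 0.50 in HSA-MCM females (adjusted p = 0.441) and -0.34 ± 0.73 in HSA-MCM males (adjusted p = 0.93). The summed level of the slow-fibre list moved with them, at 3793, 7911 and 8201 CPM in HSA-MCM females after tamoxifen, against 1251, 3639 and 6510 CPM after vehicle. In HSA-MCM males it was 167, 930 and 2945 CPM after tamoxifen, against 411, 1909 and 3506 CPM after vehicle. With Myh7 as a covariate the change of Smtnl2 over the 4 combinations was -0.94 ± 0.06 (adjusted p = 5.88e-10), and all 8 genes called without the covariate were called with it. Slopes were also fitted within parts of the data. In 12 male libraries 5 of the 41 genes passed (1.66% of all genes), in 6 HSA-MCM female libraries 6 (0.464%) and in 6 flox female libraries 3 (0.695%), and Myoz2 passed in each with an adjusted p of at most 0.00409. Csrp3 (adjusted p = 0.465) and Ankrd2 (adjusted p = 0.484) did not pass in flox females. Myom3 (adjusted p = 0.324) and Ankrd2 (adjusted p = 0.052) did not pass in HSA-MCM females, nor Lmod2 in males (adjusted p = 0.0841). The slopes of these genes stayed positive in every part. Without the 3 HSA-MCM male libraries titled vehicle, 9 of the 41 and 2.27% of all genes passed.

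None of the remaining genes passed with edgeR in a comparison of groups or for its slope. Ttn (titin), which spans the sarcomere, averaged 18613 ± 498 CPM in HSA-MCM females after tamoxifen and 21879 ± 1173 CPM after vehicle, and 13499 ± 3845 CPM in HSA-MCM males after tamoxifen and 15723 ± 1276 CPM after vehicle (SD, n = 3 each). The HSA-MCM male tamoxifen libraries had 9368, 16974 and 14155 CPM of Ttn. Library 1 of these was the lowest of all 24 for Ttn and, among others, for Neb, Des, Mybpc2, Myoz1, Tmod4 and Sgca. Neb (nebulin, a ruler of the thin filament) averaged 7848 ± 351 CPM in HSA-MCM females after tamoxifen and 9052 ± 498 CPM after vehicle. Dmd averaged 183 ± 3.22 CPM in HSA-MCM females after tamoxifen and 193 ± 32.2 CPM after vehicle. In flox males Ttn averaged 18173 ± 3449 CPM after tamoxifen and 15308 ± 981 CPM after vehicle. The log2 differences after tamoxifen had mixed signs over the 4 combinations for each of the 3 genes, with 0.38 for Neb and 0.39 for Dmd in flox males. Des lay between 2715 and 3883 CPM in the 24 libraries, Myot (myotilin, of the Z-disc) between 779 and 1468, Ldb3 (ZASP, which binds alpha-actinin) between 1478 and 2788, Myom1 between 1642 and 2843 and Pdlim3 between 393 and 883 CPM. At the membrane, Sgca lay between 143 and 234 CPM, Tln1 (talin 1) between 97.6 and 158, Dysf (dysferlin, of membrane repair) between 74.8 and 130 and Sgcd between 4.39 and 27.5 CPM. Ankrd23 lay between 59.1 and 386 CPM, and 78.2% of its exonic bases overlap another annotated gene, so its counts are uncertain. Myoz3, Pdlim5, Ankrd1 and Klhl41 completed the list, with 57.4 to 90.9, 308 to 525, 3.26 to 22.7 and 576 to 794 CPM in that order.

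A list of 54 other genes of the sarcomere, M-band and costamere was read beside the 41. Over the 4 combinations 3 of the 54 rose after tamoxifen and 7 fell, where 3.95% of all genes rose and 4.88% fell. Obsl1 (an M-band protein that binds titin) rose by a log2 change of 0.55 ± 0.07 (adjusted p = 1.09e-05, edgeR), Sgce (epsilon-sarcoglycan) by 0.27 and Sntb1 (beta-1-syntrophin, a partner of dystrophin) by 0.69. Capn3 (the protease calpain 3, anchored on titin) fell by 0.27 ± 0.05 (adjusted p = 0.00123), the slingshot phosphatase gene Ssh2 by 0.29 and the myosin chaperone gene Unc45b by 0.21. Cap2, Klhl40 and Synm also fell, by 0.18 to 0.23. Within the sarcoglycans Sgcb was thus lower and Sgce higher after tamoxifen. Obsl1 alone of the 54 passed in HSA-MCM males, with 0.84 ± 0.16 (adjusted p = 0.0327), and in flox males 2, Obsl1 and Sntb1, rose and 2 fell, among them Unc45b. In females 0 of the 54 passed with the transgene and 0 of the 53 tested without it, with edgeR. Under an unadjusted p of 0.05 lay 11 of them in HSA-MCM females, where 16.8% of all genes did, and 4 in flox females. Between tamoxifen males 2 of the 54, Cavin4 (a caveola protein of muscle) and Trim55, were higher in HSA-MCM males and 1 was lower. Of the 54, 9 had positive and 5 negative slopes on Myh7 past the threshold, against 4.19% and 2.63% of all genes, among them Actn3 (the fast alpha-actinin) with -0.17 ± 0.03 (adjusted p = 0.00266), opposite in sign to its paralog Actn2.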

How the data were processed

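The authors deposited unnormalized whole-number read counts by Ensembl gene in 3 tables. The tools named are STAR, featureCounts and limma and the builds GRCm38 and mm10, per the submitters' processing notes, which give no versions or roles. No source used here gives the library kit, the strand setting, the annotation release or the handling of multi-mapping reads, so overlapping genes are uncertain. Coordinates and exons are from GENCODE on GRCm38. Symbols were matched for 54723 of 54752 IDs. The 41 genes and the lists were chosen with earlier results of these data known.

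Genes were tested in R 4.3.3 with edgeR 4.0.16 over each whole table: TMM scaling, filterByExpr (minimum count 10, minimum total 15), robust dispersion, the quasi-likelihood F-test and Benjamini-Hochberg adjustment at 0.05. Adjusted p-values are from edgeR unless DESeq2 1.42.0 is named. The SE is the log2 change over the square root of F. Log2 CPM of Myh7 used a prior count of 2. Each female table was fitted alone (6 libraries) and the 12 males together. Interactions in females used 12 libraries, and slopes and means over sex and genotype used 24. Genes past the threshold in a comparison, the 5 largest slopes of either sign (4 negative ones passed) and up to 6 called genes of the other sarcomere list per comparison were named. Utrn, Sgcd, Cap2, Klhl40 and Synm were named after their values were seen, and some called genes of that list are not reported here. Alternatives were RLE size factors, no filter on low counts, DESeq2, Myh7 as a covariate, parts of the data, and each library left out in turn. Replicates differed by more than sampling noise (chi-square per degree of freedom 9.22 to 117 over 24 pairs), so none was merged. The labels do not say that each is a separate animal, so a p-value speaks of spread between libraries only. Simulated counts with known changes were run through the same code first.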

Additional observations from a re-analysis of the deposited data

Results flagged for a closer look

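The tamoxifen responses of 2 of the 41 genes differed between the sexes by a test of the difference itself, which was added after the responses had been seen. For Mybph the mean response of females minus that of males was a log2 difference of -2.63 ± 0.43 (SE; adjusted p = 0.00589, edgeR quasi-likelihood test), with all 6 female tamoxifen libraries below the vehicle libraries of their genotype and all 6 male tamoxifen libraries above them. For Smtnl2 the difference was 0.75 ± 0.16 (adjusted p = 0.0238). The log2 change was -0.88 in HSA-MCM females against -0.80 in HSA-MCM males, and -0.23 in flox females against -1.82 in flox males. The call was lost without any of 6 single libraries (adjusted p 0.0501 to 0.0565). These are HSA-MCM female tamoxifen 2 and vehicle 1 and 3, flox female vehicle 1, and flox male tamoxifen 3 and vehicle 3. Sex and count table cannot be told apart for levels, and whether this bears on the difference of responses was not tested.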

How the results depend on the processing

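The number of the 41 genes past the threshold was 3 in HSA-MCM females, 0 in flox females, 2 in HSA-MCM males, 3 in flox males, 0 and 4 between male genotypes after vehicle and after tamoxifen, 0 in each interaction, 8 over the 4 combinations, 2 between the sexes and 14 for slopes on Myh7. Without the filter on low counts it was 8 in HSA-MCM females, 3 in flox females, 1 for the interaction in females, 5 over the 4 combinations and 1 between the sexes. The number over all genes was then 941 in HSA-MCM females, 329 in flox females and 20 for the interaction in females. DESeq2 called 7 in HSA-MCM females, 2 in flox females, 6 in flox males, 2 between vehicle males and 1 in each interaction. Over all genes it called 681, 143, 866 and 594 in the same order, and 75 and 42 in the interactions of males and females. With Myh7 as a covariate 3 passed in flox females, where 65 of all genes did. With only the 6 libraries compared, 6 passed in flox males, 0 in HSA-MCM males and 1 between vehicle males. Over all genes 917 then passed in flox males and 27 in HSA-MCM males. Without the 2 HSA-MCM males lowest in Myh7, an alternative added after seeing the data, 1 passed in HSA-MCM males and 2 between tamoxifen males. Over all genes 45 and 536 passed there. For slopes, 6 passed in the 6 HSA-MCM females, 3 in the 6 flox females, 5 in the 12 males and 9 without the 3 HSA-MCM vehicle males. Over all genes 66, 101, 259 and 381 passed in the same order. The slope of Nrap reversed to -0.164 in the 6 flox female libraries. The cause of these shifts was not tested.

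With each library left out in turn, 1 to 4 genes passed in HSA-MCM females (1 without vehicle 1 or 2), 0 to 2 in flox females (2 without tamoxifen 1), 0 to 1 in HSA-MCM males and 1 to 5 in flox males (5 without HSA-MCM vehicle 3, and 1 without HSA-MCM vehicle 1 or any flox library but vehicle 3). Between male genotypes 0 to 1 passed after vehicle (1 without flox tamoxifen 2) and 1 to 5 after tamoxifen (1 without HSA-MCM tamoxifen 3 or any flox tamoxifen library, and 2 without HSA-MCM tamoxifen 2). Over the 4 combinations 5 to 8 passed (5 without HSA-MCM female tamoxifen 1), 1 to 3 between the sexes, and 7 to 18 for slopes (7 without HSA-MCM male tamoxifen 1, and 9 without HSA-MCM male vehicle 3). Over all genes 37 to 215 passed in HSA-MCM females, 3 to 87 in flox females, 68 to 151 in HSA-MCM males and 143 to 644 in flox males. Between male genotypes 44 to 204 passed after vehicle and 280 to 997 after tamoxifen. The range was 1153 to 1456 over the 4 combinations, 82 to 209 between the sexes and 298 to 1825 for slopes. Of 36 gene results, 9 stayed past the threshold in every alternative run and 35 kept their sign.

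In flox females the vehicle and tamoxifen libraries share numbers in the labels. With the replicate block 0 of the 41 genes passed, as without it, and 15 genes in all passed against 19. Deviations of same-numbered libraries correlated at -0.2, -0.033 and -0.101, so the numbers were not read as pairs. In the other groups the numbers only name libraries.

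Over all genes tested the count past the threshold spanned 37 to 941 in HSA-MCM females (187 as reported), 3 to 329 in flox females (19), 27 to 317 in HSA-MCM males (139), 143 to 917 in males without the transgene (452), 44 to 594 between vehicle males (148) and 280 to 1301 between tamoxifen males (817). It spanned 1 to 75 for the interaction in males (2) and 0 to 42 in females (0), 1153 to 1797 over the 4 combinations (1472), 79 to 314 between the sexes (118) and 66 to 1825 for slopes (1138).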
